A study of Mus musculus with 4 samples.

Results

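A set of 10 genes that the study drew from a signature of classical dendritic cells (cDCs) were followed here in bone marrow progenitors with and without Bcl11a. They are Ass1, Kmo, Jaml, Slamf7, Btla, Adam19, Gpr132, P2ry10, Traf1 and Ap1s3, that is, the genes labeled in its cDC signature plot without Flt3, Kit, Bcl11a, Zbtb46 and Ccr7. Every probe set whose annotation holds one of these symbols was kept, which gave 11 probe sets for 10 genes, of 28853 probe sets on the array. Each of the other genes had 1 probe set. Ass1 had 2, both annotated with Ass1 and with its transcribed pseudogene Gm5424, so that signal from Ass1 and Gm5424 cannot be told apart.

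Bcl11a is a zinc finger transcription factor of lymphoid and erythroid cells, and the study asked which genes depend on it in early hematopoiesis. In the chimeras, fetal liver cells were transferred into B6.SJL recipients after a lethal dose of 1200 rad, and came from Bcl11a-/- fetuses, which lack the first exon of Bcl11a, or from WT fetuses. After 4 weeks, donor-derived multipotent progenitors (MPPs, CD150-negative LSK cells) and granulocyte-macrophage progenitors (GMPs) were sorted from the bone marrow and pooled by donor genotype. RNA from Bcl11a-/- MPPs, WT MPPs, Bcl11a-/- GMPs and WT GMPs was hybridized to 1 array each, 4 in all, and all 4 are labeled with the B6.SJL background. The deletion is a germline one in the donors and absent from the recipients, and the number of mice per pool is not given. There are no replicates, so differences between arrays are given as values without a test, and those greater than 2-fold, the study's own threshold, are counted.

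cDCs are antigen-presenting cells of tissues and lymphoid organs that develop from bone marrow progenitors responding to the cytokine Flt3 ligand. The sorted MPPs and GMPs lie upstream of cDCs. Of the 10 genes, Ass1 and Kmo encode metabolic enzymes, Jaml, Slamf7, Btla and Adam19 encode surface proteins, Gpr132 and P2ry10 encode G protein-coupled receptors, and Traf1 and Ap1s3 encode intracellular adaptors. None of the 10 is confined to cDCs: each is also known in other blood or non-blood cells.

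The 250 bases before the annotated start of 4 genes are shown, since these had the largest differences between Bcl11a-/- and WT MPPs. The sequences are from RefSeq on GRCm38.p6, on the gene's own strand, and capitals mark matches on either strand to TGACCA, a motif recognized by human BCL11A, to GAGGAA, the core of PU.1-type sites, and to GGGCGG, the GC box. The Ass1 window is chr2:31470020-31470269 on the plus strand, the Kmo window chr1:175631943-175632192 on the plus strand, the Jaml window chr9:45078933-45079182 on the plus strand and the Gpr132 window chr12:112860917-112861166 on the minus strand.
Ass1: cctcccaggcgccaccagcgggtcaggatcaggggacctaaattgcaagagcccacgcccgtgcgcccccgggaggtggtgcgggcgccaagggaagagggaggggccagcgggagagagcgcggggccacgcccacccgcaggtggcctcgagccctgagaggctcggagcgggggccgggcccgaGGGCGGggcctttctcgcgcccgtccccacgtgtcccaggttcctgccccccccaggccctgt
Kmo: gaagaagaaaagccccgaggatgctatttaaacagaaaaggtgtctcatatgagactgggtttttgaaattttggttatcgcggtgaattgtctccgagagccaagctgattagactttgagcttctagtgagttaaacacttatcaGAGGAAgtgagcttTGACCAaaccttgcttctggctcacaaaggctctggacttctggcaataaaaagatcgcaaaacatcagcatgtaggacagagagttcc
Jaml: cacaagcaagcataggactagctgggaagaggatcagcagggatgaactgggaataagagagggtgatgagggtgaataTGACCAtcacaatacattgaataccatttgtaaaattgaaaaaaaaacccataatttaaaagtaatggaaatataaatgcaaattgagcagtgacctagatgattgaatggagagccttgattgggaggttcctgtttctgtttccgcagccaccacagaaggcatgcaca
Gpr132: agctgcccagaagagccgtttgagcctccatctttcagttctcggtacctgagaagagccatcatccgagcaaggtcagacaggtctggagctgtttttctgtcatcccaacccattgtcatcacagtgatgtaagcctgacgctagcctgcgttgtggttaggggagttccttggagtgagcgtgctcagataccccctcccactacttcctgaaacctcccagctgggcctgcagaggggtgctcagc
The Ass1 window was 75.6% G and C, against a median of 52.4% over 32851 windows of the same length, and held a GC box 63 bases before the start. The Kmo window (42.8% G and C) held TGACCA 89 bases and GAGGAA 103 bases before the start, with no overlap between them. The Jaml window (40.8%) held TGACCA 171 bases before the start, and the Gpr132 window (55.6%) held none of the 3 motifs. All 10 genes matched the RefSeq table, with 13 windows because Adam19 and P2ry10 have several starts. TGACCA lay in 3 of these 13 windows (Kmo, Jaml and 1 start of Adam19) and in 11.4% of all windows, GAGGAA in 5 of 13 (Kmo, Btla, Adam19, P2ry10 and Ap1s3) and in 23.3% of all windows, and GGGCGG in 1 of 13 (Ass1) and in 32.7% of all windows.

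Bcl11a signal was lower in Bcl11a-/- cells of both populations, by less than 2-fold in GMPs, and GMP markers together were brighter in GMPs. Bcl11a signal was 8.64 in Bcl11a-/- MPPs and 9.89 in WT MPPs on the log2 scale, and 7.77 in Bcl11a-/- GMPs and 8.60 in WT GMPs. On both Bcl11a-/- arrays it stayed above the array median. The position of the Bcl11a probes relative to the deleted exon was not checked here. The summed linear signal of 10 GMP markers, among them Mpo and Elane, was 4834 in Bcl11a-/- MPPs and 11250 in WT MPPs, below the 31644 in Bcl11a-/- GMPs and 33244 in WT GMPs. Median signal lay between 5.50 and 5.70 on the 4 arrays, so a signal under 5 is in the lower part of each array. Signals are given below for each gene in the order Bcl11a-/- MPPs, WT MPPs, Bcl11a-/- GMPs and WT GMPs, and differences are Bcl11a-/- minus WT. In bulk samples such as these, fewer cells of a type and less RNA per cell cannot be told apart.

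**Figure D1:**
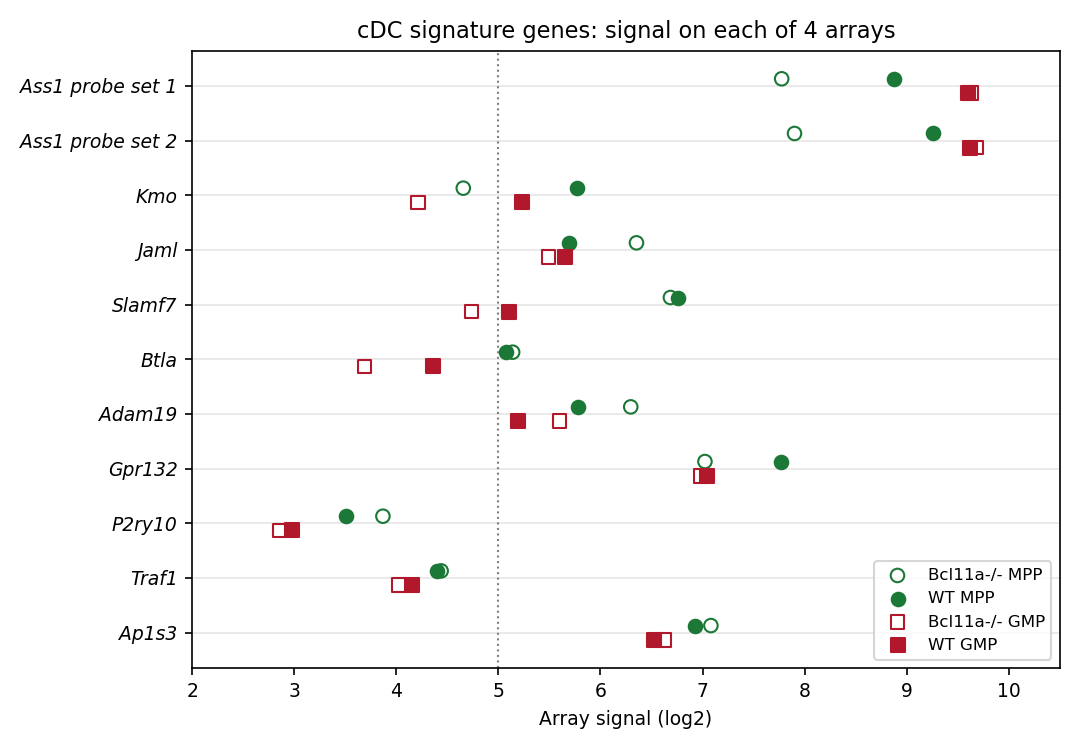
Log2 signal (horizontal axis, dotted line at 5) of each of the 11 probe sets of the 10 signature genes in Bcl11a-/- MPPs, WT MPPs, Bcl11a-/- GMPs and WT GMPs, 1 point per array and no error bars because each group is 1 array. The Ass1 signals of Bcl11a-/- MPPs lie under those of the other 3 arrays, and both Bcl11a-/- Kmo signals lie under both WT signals.

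In MPPs, 3 of the 11 probe sets were more than 2-fold lower in Bcl11a-/- cells, both of Ass1 and that of Kmo, and 0 were more than 2-fold higher. Over all probe sets, 2.51% were lower and 1.39% higher by that measure. In GMPs, 1 probe set, that of Kmo, was more than 2-fold lower and 0 were higher, against 0.35% lower and 0.319% higher over all probe sets. The median difference over the 11 probe sets was 0.04 in MPPs and -0.12 in GMPs, against 0.05 and 0.01 over all probe sets. The medians of the group thus lay near those of the array, though its values in MPPs were spread more widely. The differences within the group ran between -1.36 and 0.66 in MPPs and between -1.02 and 0.41 in GMPs. Of the 11 probe sets, 5 lay within 0.5 of 0 in MPPs and 9 in GMPs, where 82.0% and 93.5% of all probe sets did. In 6 of the 11, the difference had opposite signs in MPPs and GMPs (for Btla and Traf1 only in part of the scalings tried), which was the case for 44.8% of all probe sets.

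**Figure D2:**
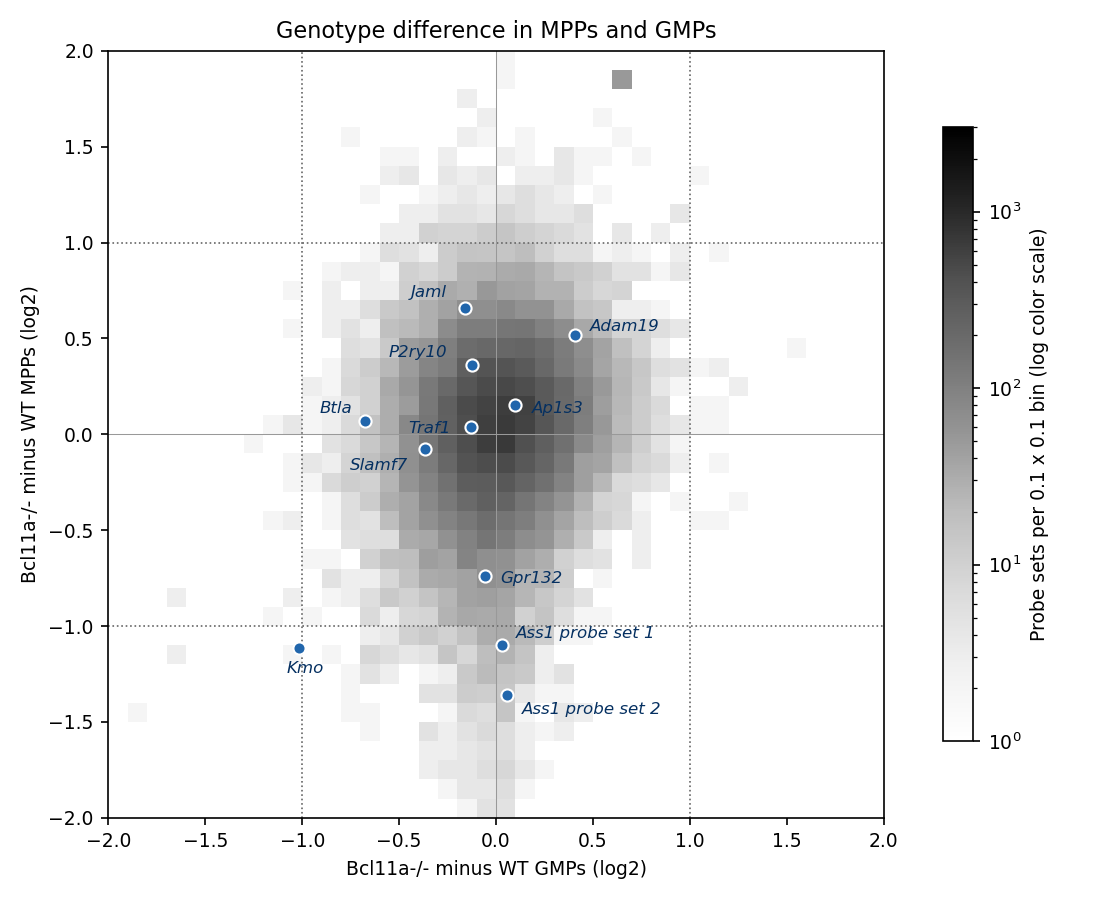
Difference between Bcl11a-/- and WT cells on the log2 scale in MPPs (vertical axis) and GMPs (horizontal axis) for the 11 probe sets of the signature genes (blue points) over the count of all probe sets per bin (gray); dotted lines mark 2-fold, and probe sets past the axis limits are not drawn. Kmo is the only one of the 11 lower by more than 2-fold on both axes, and the Ass1 probe sets are lower in MPPs (-1.10 and -1.36) and near 0 in GMPs. The isolated dark bin near the top holds 50 unnamed probe sets that share the same 4 values.

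Ass1 encodes argininosuccinate synthase, which joins citrulline and aspartate in the step that limits the recovery of arginine from citrulline. The first Ass1 probe set gave 7.78 in Bcl11a-/- MPPs, 8.87 in WT MPPs, 9.63 in Bcl11a-/- GMPs and 9.60 in WT GMPs. The second gave 7.90, 9.26, 9.68 and 9.62 on the same arrays. Both probe sets were thus lowest in Bcl11a-/- MPPs, while the GMPs of the 2 genotypes lay close together. In MPPs the difference was -1.10 (2.14-fold lower) for the first and -1.36 (2.56-fold lower) for the second, values reached in the same direction by 1.97% and 1.09% of all probe sets. In GMPs it was 0.03 and 0.06. The step between populations differed with genotype: Bcl11a-/- MPPs had 3.61-fold and 3.43-fold less signal than Bcl11a-/- GMPs, and WT MPPs had 1.66-fold and 1.29-fold less than WT GMPs.

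Several GMP markers, though not all, were likewise lowest in Bcl11a-/- MPPs: 7 of the 10 had a negative difference in MPPs and 3 a positive one. Of the 10, 4 were more than 2-fold lower in Bcl11a-/- than in WT MPPs (Ms4a3 by a difference of -2.68, Prtn3 of -2.65, Elane of -2.44 and Ctsg of -2.25, the last 3 being granule proteases) and 0 were higher, with a median of -0.52. The 3 that went the other way were Cebpe (0.87), a transcription factor of granulocyte maturation, the Fc receptor gene Fcgr3 (0.47) and Cebpa (0.02). In GMPs 0 of the 10 passed 2-fold in either direction, with a median of -0.12. Mpo, a defining granule enzyme of these cells, was bright on every array, at 11.34 in Bcl11a-/- MPPs, 11.84 in WT MPPs, 12.13 in Bcl11a-/- GMPs and 12.13 in WT GMPs. The part of these markers in the Ass1 difference was not tested.

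Kmo encodes kynurenine 3-monooxygenase, a mitochondrial flavoenzyme that steers tryptophan breakdown toward quinolinic acid and NAD. Its signal was 4.66 in Bcl11a-/- MPPs, 5.77 in WT MPPs, 4.21 in Bcl11a-/- GMPs and 5.23 in WT GMPs. Both Bcl11a-/- arrays were below both WT arrays. The difference was -1.11 in MPPs (2.16-fold lower) and -1.02 in GMPs (2.03-fold lower). As signature genes more than 2-fold lower in MPPs, the study names only Ass1, Amica1 and Flt3. Kmo, Ccr7 (-1.01) and Bcl11a itself (-1.25) were not among them, though each passed 2-fold here. The study's count of probe sets past 2-fold in MPPs also differs from that here (402 higher and 723 lower). The values used here thus do not match those of the study in full, and the reason was not examined. Kmo was the one gene of the 10 more than 2-fold lower in both populations, a pattern found in 35 of all probe sets (0.121%). Its signal was low, under 5 on both Bcl11a-/- arrays, and the call depended on those low values: with every signal under 5 set to 5, the differences were -0.77 in MPPs and -0.23 in GMPs.

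Markers of B cells were lower in the same arrays as Kmo. Of 10 listed, 9 were measured by a probe set of their own, and of these 8 were more than 2-fold lower in Bcl11a-/- than in WT MPPs (median -3.23) and 5 in Bcl11a-/- than in WT GMPs (median -1.16), with 0 higher in either. Their summed linear signal was 496 in Bcl11a-/- MPPs, 4344 in WT MPPs, 559 in Bcl11a-/- GMPs and 1089 in WT GMPs. Of 9 markers of plasmacytoid dendritic cells, 7 were lower and 2 higher in Bcl11a-/- than in WT MPPs (median -0.78), 3 of them more than 2-fold lower. In GMPs 6 were lower and 3 higher (median -0.21), and 1 was more than 2-fold lower. The part of either set of markers in the Kmo difference was not tested.

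Jaml, a junctional adhesion molecule of leukocytes that binds the epithelial coxsackie and adenovirus receptor CAR, had signals of 6.35 in Bcl11a-/- MPPs, 5.69 in WT MPPs, 5.49 in Bcl11a-/- GMPs and 5.65 in WT GMPs. Bcl11a-/- MPPs stood above the other 3 arrays, which lay between 5.49 and 5.69. The difference was 0.66 in MPPs (1.58-fold higher), the largest positive value among the 11 probe sets and reached by 4.43% of all probe sets. This direction is opposite to the one the study gives for Amica1, an older name of Jaml. The annotation used here ties only 1 probe set to Jaml, whereas the label Amica1 appears more than once in the plot of the signature, so a further probe set of the gene may not be covered here. In GMPs the difference was -0.16. Cxadr, which encodes CAR, differed by 0.45 in MPPs and 0.02 in GMPs.

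Slamf7 encodes a receptor of the SLAM family that binds itself on neighboring cells and is known on NK cells, B lineage cells and DCs. Its signal was 6.69 in Bcl11a-/- MPPs, 6.76 in WT MPPs, 4.74 in Bcl11a-/- GMPs and 5.11 in WT GMPs. It separated the populations far more than the genotypes: the genotype differences were -0.08 in MPPs and -0.37 in GMPs, whereas MPPs exceeded GMPs by 1.95 among Bcl11a-/- cells (3.86-fold) and by 1.66 among WT cells (3.16-fold). Only 0.35% and 0.27% of all probe sets were higher in MPPs by as much. The signal in Bcl11a-/- GMPs lay under 5. With signals under 5 set to 5, MPPs exceeded GMPs by 1.69 among Bcl11a-/- cells, close to the 1.66 among WT cells.

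Btla encodes an inhibitory receptor of lymphocytes and DCs whose ligand is the TNF receptor family member HVEM. Its signal was 5.14 in Bcl11a-/- MPPs, 5.07 in WT MPPs, 3.69 in Bcl11a-/- GMPs and 4.36 in WT GMPs, lower in both GMP arrays than in both MPP arrays and under the array median on all 4. The genotype difference was 0.07 in MPPs and -0.68 in GMPs (1.60-fold lower), the second value being reached by 1.15% of all probe sets. Both GMP signals lay under 5. Tnfrsf14, which encodes HVEM, gave 7.95 in Bcl11a-/- MPPs, 7.75 in WT MPPs, 8.02 in Bcl11a-/- GMPs and 8.26 in WT GMPs and differed by 0.19 in MPPs and -0.25 in GMPs.

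Adam19, a membrane metalloprotease that sheds the extracellular part of surface proteins such as neuregulin, was the one surface protein gene with a positive difference near 0.5 in both populations. Its signal was 6.30 in Bcl11a-/- MPPs, 5.78 in WT MPPs, 5.60 in Bcl11a-/- GMPs and 5.19 in WT GMPs. The difference was 0.52 in MPPs (1.43-fold) and 0.41 in GMPs (1.33-fold), reached by 8.15% and 6.0% of all probe sets. Erythroid markers were likewise higher in both Bcl11a-/- arrays: of 10 listed, 7 were measured, with a median difference of 0.40 in MPPs, where 0 passed 2-fold, and of 1.03 in GMPs, where 4 were more than 2-fold higher and 0 lower. Their summed linear signal was 7270 in Bcl11a-/- MPPs, 5747 in WT MPPs, 7194 in Bcl11a-/- GMPs and 2223 in WT GMPs. Most of that sum was Car1, at log2 signals of 12.54, 12.20, 12.46 and 10.38 on the same arrays. Markers of MPPs and stem cells also leaned toward higher signal in Bcl11a-/- cells. Of 8 measured, 8 were higher in Bcl11a-/- than in WT MPPs (median 0.34). In GMPs 6 were higher and 2 lower (median 0.24), and 0 passed 2-fold in either population. The part of either set of markers in the Adam19 difference was not tested.

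Gpr132 is a G protein-coupled receptor of lymphocytes and macrophages that responds to oxidized fatty acids. Its signal was 7.02 in Bcl11a-/- MPPs, 7.76 in WT MPPs, 6.99 in Bcl11a-/- GMPs and 7.04 in WT GMPs. WT MPPs stood above the other 3 arrays, which lay between 6.99 and 7.04. The difference was -0.74 in MPPs (1.67-fold lower), reached by 4.74% of all probe sets, and -0.06 in GMPs. WT MPPs accordingly exceeded WT GMPs by 0.72, whereas Bcl11a-/- MPPs exceeded Bcl11a-/- GMPs by 0.04.

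P2ry10, a receptor for lysophosphatidylserine, and Traf1, an adaptor that binds TNF receptor family proteins and is induced by NF-κB, were dim throughout. P2ry10 gave 3.87 in Bcl11a-/- MPPs, 3.51 in WT MPPs, 2.85 in Bcl11a-/- GMPs and 2.98 in WT GMPs, with differences of 0.36 in MPPs and -0.12 in GMPs. Traf1 gave 4.44, 4.40, 4.03 and 4.15 on the same arrays, with differences of 0.04 in MPPs and -0.13 in GMPs. Every one of these signals was under 5 and under the median of its array, and no detection calls were used here, so these values carry little information on whether the genes were expressed. Ap1s3, a small subunit of the AP-1 clathrin adaptor that sorts cargo at the trans-Golgi network, was brighter than the array median on all 4 arrays, at 7.08 in Bcl11a-/- MPPs, 6.93 in WT MPPs, 6.62 in Bcl11a-/- GMPs and 6.52 in WT GMPs. Its differences were 0.15 in MPPs and 0.10 in GMPs.

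The populations were then set against each other within each genotype. Of the 11 probe sets, 9 had more signal in MPPs than in GMPs and 2, both of Ass1, had less, and this held in Bcl11a-/- cells and in WT cells alike, except that values near 0 turned sign under other scalings: Jaml in WT cells (0.04) was -0.08 after lowess or renewed quantile normalization and -0.02 after median centering, and Gpr132 in Bcl11a-/- cells (0.04) was -0.07 after median centering. 60.2% of all probe sets were higher in MPPs among Bcl11a-/- cells and 56.9% among WT cells. In Bcl11a-/- cells, 3 of the 11 (Slamf7, Btla and P2ry10) were more than 2-fold higher in MPPs, where 3.08% of all probe sets were, and 2 (both of Ass1) more than 2-fold lower, where 5.91% were. In WT cells, 1 (Slamf7) was more than 2-fold higher, where 1.55% of all probe sets were, and 0 were lower, where 2.67% were. The median over the 11 was 0.46 in Bcl11a-/- cells and 0.53 in WT cells, against 0.11 and 0.06 over all probe sets. Relative to the shift of 0.11 of all probe sets in Bcl11a-/- cells, P2ry10 was higher by 0.91 rather than by 1.02 and so no longer past 2-fold. Btla (1.45 in Bcl11a-/- cells) and P2ry10 lay under 5 on both or all arrays of GMPs, and with signals under 5 set to 5 their differences were 0.14 and 0.

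**Figure D3:**
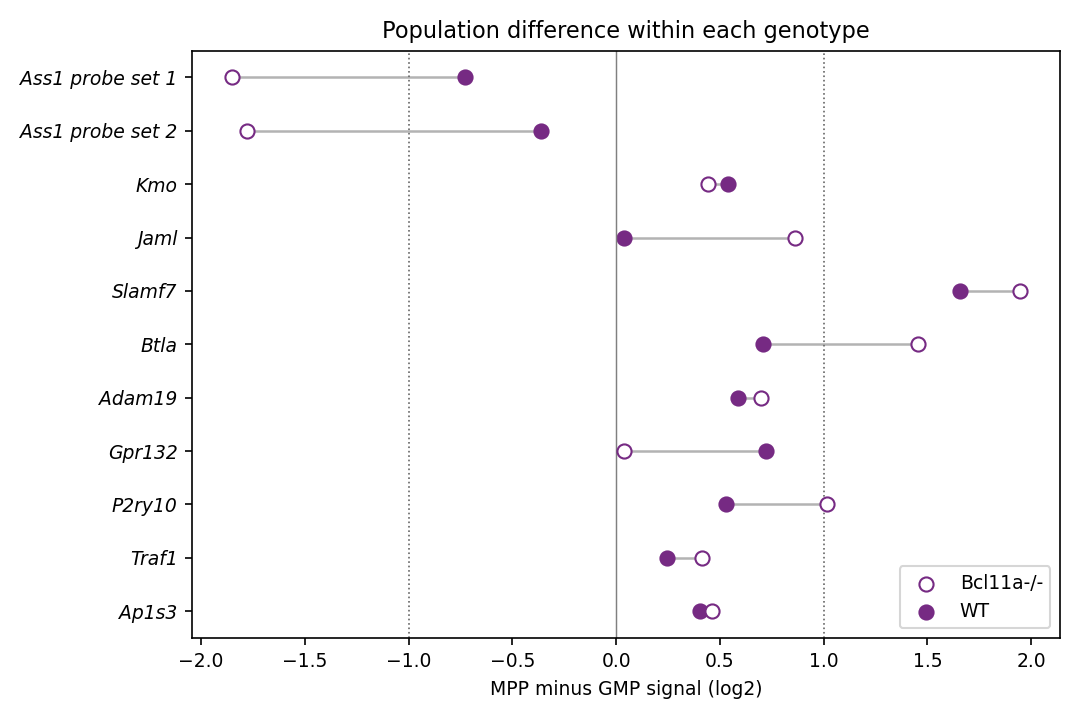
Difference between MPPs and GMPs on the log2 scale (horizontal axis) for each probe set of the signature genes, with Bcl11a-/- and WT cells as separate points and dotted lines at 2-fold. Slamf7 lies past 2-fold in both genotypes (1.95 in Bcl11a-/- cells and 1.66 in WT cells), and the Ass1 probe sets are the only ones on the negative side.

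Markers of mature cDCs were dim in part and bright in part on these arrays. Itgax, which encodes CD11c, had signals of 4.77 in Bcl11a-/- MPPs, 5.23 in WT MPPs, 4.61 in Bcl11a-/- GMPs and 5.09 in WT GMPs, all under the medians of their arrays. Xcr1 and Clec9a, receptors of cross-presenting cDCs, lay between 3.47 and 4.54 on all 4 arrays. Genes of MHC class II presentation in the same list were above the medians of all 4 arrays, with H2-Ab1 at 9.86 in Bcl11a-/- MPPs, 9.71 in WT MPPs, 8.79 in Bcl11a-/- GMPs and 7.96 in WT GMPs and Cd74, the invariant chain, at 9.96, 9.44, 8.22 and 8.22 on the same arrays. Flt3 lay between 6.46 and 9.31. Of 16 cDC markers, 2 were more than 2-fold lower in Bcl11a-/- than in WT MPPs (Flt3, the receptor of Flt3 ligand, and Ccr7, the chemokine receptor that guides DCs to lymph nodes), 0 were higher, and the median was 0.15. In GMPs 0 of 16 passed 2-fold and the median was -0.01. The 5 other genes labeled in the same signature differed in MPPs and GMPs by -1.60 and -0.28 (Flt3), -1.01 and -0.16 (Ccr7), 0.13 and 0.13 (Kit), -0.12 and 0.81 (Zbtb46), and -1.25 and -0.83 (Bcl11a itself).

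Genes of the same families and pathways as the 10 were examined next. The 10 lists held 93 genes, of which 91 were measured by a probe set with 1 symbol. In MPPs 1 of the 91 was more than 2-fold higher in Bcl11a-/- cells and 1 lower, with a median of 0.07, and in GMPs 1 was higher and 0 lower, with a median of -0.05. None of the listed genes around Ass1 and Kmo was thus more than 2-fold lower in either population. Of these, only Asl, Slc7a1, Slc25a15, Kyat1, Kyat3 and Qprt had a signal of at least 6 in MPPs. The others were dimmer, so that a lower signal would be harder to see in them. All 14 other genes of arginine and citrulline metabolism lay between -0.24 and 0.59 in MPPs (median 0.10), among them Asl, the enzyme that follows Ass1 in the pathway, at 0.07, and the mitochondrial ornithine carrier Slc25a15 at -0.16. All 13 other genes of the kynurenine pathway lay between -0.44 and 0.33 in MPPs (median -0.03) and between -0.44 and 0.48 in GMPs (median 0.10). Kyat3, a kynurenine aminotransferase, differed by -0.31 in MPPs, and Haao, which acts further down the pathway, by -0.44 in both populations.

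In MPPs the SLAM family spread furthest of the 10 lists, between -2.0 and 1.42, whereas in GMPs the list of arginine and citrulline genes did, between -0.27 and 1.31. Cd244a, which encodes the SLAM family receptor 2B4, gave 7.78 in Bcl11a-/- MPPs, 6.36 in WT MPPs, 5.98 in Bcl11a-/- GMPs and 5.92 in WT GMPs, a difference of 1.42 in MPPs and 0.06 in GMPs. Slamf6, a receptor of lymphocytes, gave 3.91, 5.91, 3.79 and 4.32 on the same arrays, a difference of -2.0 in MPPs and -0.52 in GMPs. Thus 1 family member was higher and 1 lower while Slamf7 (-0.08 in MPPs) lay between them. The 1 gene past 2-fold in GMPs was Nags, the mitochondrial enzyme that makes N-acetylglutamate, at 5.54 in Bcl11a-/- GMPs and 4.24 in WT GMPs (1.31). The calls of Slamf6 and Nags each rest on a signal under 5, in Bcl11a-/- MPPs and in WT GMPs respectively. Slamf6 and Nags, and likewise Haao and Cxadr, had signals under 6 and were named after their values were seen, as were Asl and Tnfrsf14, which did not have the largest difference of their lists.

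In the other lists, 0 genes passed 2-fold in either population. The 6 genes of the BTLA and HVEM network lay between -0.32 and 0.52 in MPPs, the highest being the TNF family ligand Ltb, and between -0.55 and -0.01 in GMPs, where Btla was at -0.68. The JAM and CAR family had a median of 0.24 in MPPs, with Jam3 at 0.39. The ADAM metalloproteases had a median of 0.21 in MPPs, with Adam8 at 0.82. Of the proton-sensing receptors, with which Gpr132 is grouped by sequence, 2 of 3 were measured, at -0.39 and 0.48 in MPPs, the second being Gpr65. The P2Y and lysophosphatidylserine receptors had a median of 0.10 in MPPs, with P2ry6, a receptor for UDP, at 0.88. The TRAF family and its partners had a median of 0.07, with Traf2 at -0.82, and the AP-1 clathrin adaptor subunits a median of 0.02, with Ap1m1 at 0.40.

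**Figure D4:**
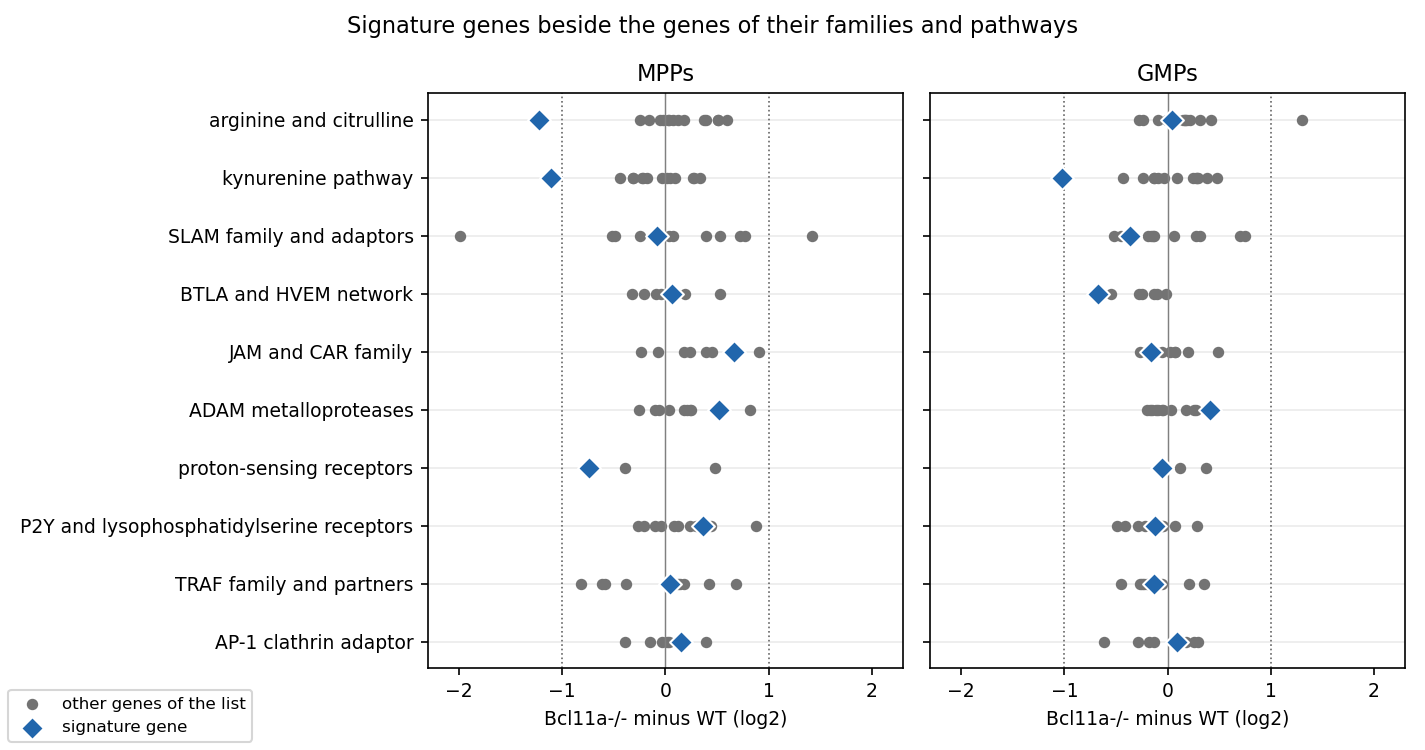
Difference between Bcl11a-/- and WT cells on the log2 scale (horizontal axis) in MPPs (left) and GMPs (right) for each signature gene (blue diamonds, the mean of both probe sets for Ass1) and the other genes of its family or pathway (gray points), with dotted lines at 2-fold. The Ass1 diamond in MPPs and the Kmo diamond in both panels lie outside the range of the gray points of their rows, as do, by less, Gpr132 in both panels and Btla and Adam19 in GMPs.

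For the 6 genes whose 4 signals spanned more than 1, the genes with the most similar profile were found by the Euclidean distance between profiles centered on their own mean, over the 4 arrays and 10152 genes (10151 for Slamf7 and Adam19) with a signal of at least 6 on 1 or more arrays. With only 4 points per profile, such matches are a description of these arrays. Ass1 was closest to Ppih (distance 0.0597), Uqcrc1 (0.0628) and Cmc2 (0.0719), whose differences in MPPs were -1.16, -1.20 and -1.18. Kmo was closest to Mzb1 (0.218), Ikzf3 (0.233) and Pou2af1 (0.271), whose differences were -0.81, -1.21 and -0.98 in MPPs and -1.06, -0.71 and -0.66 in GMPs. Its nearest profiles were further away than those of Ass1. Slamf7 was closest to P2ry14 (0.196), Nlrc3 (0.206) and Arhgap32 (0.227), and Btla to Syne2 (0.0952), Ctxn1 (0.150) and Prkce (0.183). Adam19 was closest to Ankrd26 (0.0545), Selenok-ps1 (0.0734) and Tal1 (0.0785), and P2ry10 to Kansl1 (0.0473), 1110032A03Rik (0.0562) and Gpam (0.0583). P2ry10 itself lay under 5 on all 4 arrays, so its matches carry little information despite their small distances.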

How the data were processed

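Gene expression was measured by the authors on 4 one-color oligonucleotide arrays. The deposited unit is the log2 signal of a probe set on 1 array, obtained by the authors by RMA quantile normalization in ArrayStar (version not given in the sources used here) from RNA labeled with an Ovation PicoSL kit. Quantile normalization can hide a change in total mRNA per cell. The table held 30177 rows. Of these, 1324 unannotated rows with the lowest IDs were taken as controls by their numbering and set aside. Of the 28853 probe sets left, 21789 have 1 gene symbol in the platform annotation, 1621 several and 5443 none, and 707 share their 4 values with other rows (228 sets, none with a signature gene). No columns were left unmapped.

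Differences in log2 signal were computed in Python 3.11.15 with numpy 2.4.6 and pandas 2.3.3, with statsmodels 0.14.6 for lowess (span 0.3), after the scripts had been tested on simulated data. No test was run, because each group is 1 array, and the number of arrays limits the precision. Named were all 10 signature genes; from each list, genes past 2-fold with a signal of at least 6, or else that with the largest difference in MPPs at that signal, with the exceptions given in the text; and the 3 nearest profiles of each gene spanning over 1. The genes and lists were chosen with earlier results of these data known. Alternatives were a signal floor of 5, a signal minimum of 6, lowess and median centering, renewed quantile normalization, other handling of probe sets, and thresholds of 1.5-fold and 3-fold. Promoter windows came from a RefSeq table (GRCm38.p6).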

Additional observations from a re-analysis of the deposited data

Results flagged for a closer look

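For 5 of the 10 signature genes the Bcl11a-/- minus WT difference ran in opposite directions in MPPs and GMPs. By probe set this was 6 of 11, against 44.8% of all probe sets, a share near that of the array as a whole. The difference between the populations was not tested, since each group is 1 array. Ass1 was lower in Bcl11a-/- than in WT MPPs and near 0 in GMPs, and its effect in MPPs minus that in GMPs was -1.13 for the first probe set and -1.41 for the second. The same measure was 0.82 for Jaml, 0.74 for Btla, 0.48 for P2ry10 and 0.17 for Traf1, all 4 being higher in Bcl11a-/- MPPs and lower in Bcl11a-/- GMPs. For Btla and Traf1 the difference in MPPs lay within 0.10 of 0, and its sign turned under other scalings. P2ry10 and Traf1 had signals under 5 on all 4 arrays.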

How the results depend on the processing

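The count of 3 probe sets past 2-fold in MPPs was 2 with signals under 5 set to 5, at a signal of at least 6, or with 1 value per gene. It was 1 with probe sets of 1 symbol only, which removes Ass1, 5 at 1.5-fold and 0 at 3-fold. The count of 1 in GMPs was 0 with signals under 5 set to 5, 0 at a signal of at least 6, 2 at 1.5-fold and 0 at 3-fold, and that of 1 between WT MPPs and WT GMPs was 5 at 1.5-fold. For Bcl11a-/- MPPs against GMPs, alternatives chosen after seeing the data changed the count of 5 to 3 under the floor of 5, 3 at a signal of at least 6, 3 with 1 symbol only and 3 at 3-fold. It was 4 under lowess, median centering, renewed quantile normalization or 1 value per gene, and 7 at 1.5-fold. The median in MPPs (0.04) was -0.070 after lowess centering and -0.078 at a signal of at least 6, and that in GMPs (-0.12) was 0 under the floor and 0.043 at a signal of at least 6. All 22 single differences between genotypes kept their side of 2-fold under lowess, median centering and renewed quantile normalization, while under the floor 2, both of Kmo, fell short of it. Near 0, the MPP difference of Btla (0.07) was -0.02 after quantile normalization and -0.03 after lowess, and that of Traf1 (0.04) was -0.07 and -0.07, and -0.01 after median centering. Beyond the signature genes, the floor changed the split in MPPs to 220 probe sets higher and 649 lower, against 402 and 723, and that in GMPs to 55 higher and 49 lower, against 92 and 101. Counting rows with the same 4 values once, also chosen after seeing the data, gave 1.23% higher and 2.52% lower in MPPs. With 1 array per group, none of these values separates genotype from pool or array.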
